A study of Sus scrofa with 8 samples.

Results

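Fatty acid oxidation was followed in piglet jejunum through the genes CPT1A, CPT2, ACADM, ACADL, ACADVL, HADHB, EHHADH and PPARA. A gene was taken up where an array probe carried a RefSeq accession that a gene table pairs with its symbol, and its brightest probe over all arrays stood for it. This gave 5 of the 8 listed genes, CPT1A, CPT2, ACADM, ACADL and PPARA, with 21 probes in all, out of 3216 genes named in this way and 43603 probes. ACADVL, HADHB and EHHADH had no probe under this rule and were not analysed here. The 5 genes include no enzyme that makes ketone bodies, and ketone body synthesis is not described here.

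The samples were 8 Duroc × Landrace piglets killed at 25 days of age, 4 still nursed by the sow (suckling) and 4 taken from the sow at 21 days (weaned), that is 4 days earlier. The weaned piglets' feed held 20.50% crude protein and 14.48 MJ of digestible energy per kg. Both groups drew on the same 4 litters, and each array held the RNA of 1 piglet, from about 2 cm of mid-jejunum, so epithelium, muscle, vessels and immune cells were measured together. In such bulk RNA, fewer cells of a type and less RNA per cell cannot be told apart.

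Fatty acids are burned mainly in mitochondria. Long chains are activated to acyl-CoA, carried across the inner membrane as carnitine esters by the CPT system, and shortened by repeated rounds that each begin with an acyl-CoA dehydrogenase. Peroxisomes shorten very long and branched chains, and PPARA is a nuclear receptor that binds fatty acids and switches on many of these genes. Sow's milk is rich in fat, so the suckling small intestine handles large amounts of fatty acid.

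Each group was hybridised on a slide of its own, and an effect of the slide cannot be told apart from one of weaning. Suckling replicate 1 stood apart from its group. Its 75th percentile of signal was 245 scanner units against 317 to 395 on the other arrays, and 8 of 8 enterocyte markers with a probe (17 were listed) were lower in it than in any other suckling array. The summed signal of these markers, in multiples of each array's 75th percentile, was 389 in suckling replicate 1, 1213 to 1857 in the other suckling arrays and 558 to 1072 in the weaned arrays. All 8 markers, FABP2, ANPEP, SLC5A1, APOA4, DPP4, EPCAM, CDH1 and TMPRSS15, were well above background on all 8 arrays. The 6 tested markers of crypt and dividing cells (13 listed) all had higher means in weaned piglets, with summed levels of 40.6 to 64.2 against 22.7 to 69.7, and suckling replicate 1 had the highest sum of the 8. Leukocyte markers were higher in weaned piglets for 11 of 13 tested (18 listed; sums 24.9 to 41.1 against 19.2 to 29.9), and matrix markers lower for 5 of 5 (11 listed; 69.8 to 106 against 79.4 to 120). Means were lower in weaned piglets for 5 of 6 endothelial markers (9 listed, sums 14.7 to 14.9 against 16.6 to 18.4) and for 4 of 5 tested liver and pancreas markers (11 listed). The sums of the 7 liver and pancreas markers with a probe, tested or not, were 1.76 to 5.17 against 1.61 to 6.23. Means were higher in weaned piglets for 4 of 5 smooth muscle markers (10 listed, sums 78.6 to 262 against 140 to 299). The same held for 4 of 7 goblet, Paneth and enteroendocrine markers (13 listed, sums 296 to 391 against 112 to 291). These 7 ran from -1.16 to 1.78 on the log2 scale (median 0.09), and a sum follows its brightest genes. Without suckling replicate 1, 3 of the 7 were higher (median -0.21). No marker passed the test described next with 8 arrays, while 2 crypt markers passed without suckling replicate 1. Results are given with and without that array, and the part of cell composition in them was not tested.

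None of the 5 genes passed the test between weaned and suckling piglets. The test was limma's moderated test over all 30556 tested probes, two-sided, with Benjamini-Hochberg adjusted p under 0.05 as the threshold. Over all tested probes 0.177% passed, 54 in number, of which 53 were higher (0.173%) and 1 was lower (0.00327%) in the weaned group. At an unadjusted p under 0.05, 0 of the 5 genes stood out, against 12.3% of all tested probes. The values of the 5 genes overlapped between the groups, where 7.76% of all tested probes did not overlap (4.93% higher and 2.83% lower in weaned piglets). Without suckling replicate 1 the 5 genes still overlapped and none passed, where 1.82% of all tested probes passed (1.23% higher and 0.59% lower) and 20.5% did not overlap (12.2% higher and 8.34% lower). The median log2 difference over the 5 genes, weaned minus suckling, was 0.01, against 0.04 over all tested probes.

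**Figure D1:**
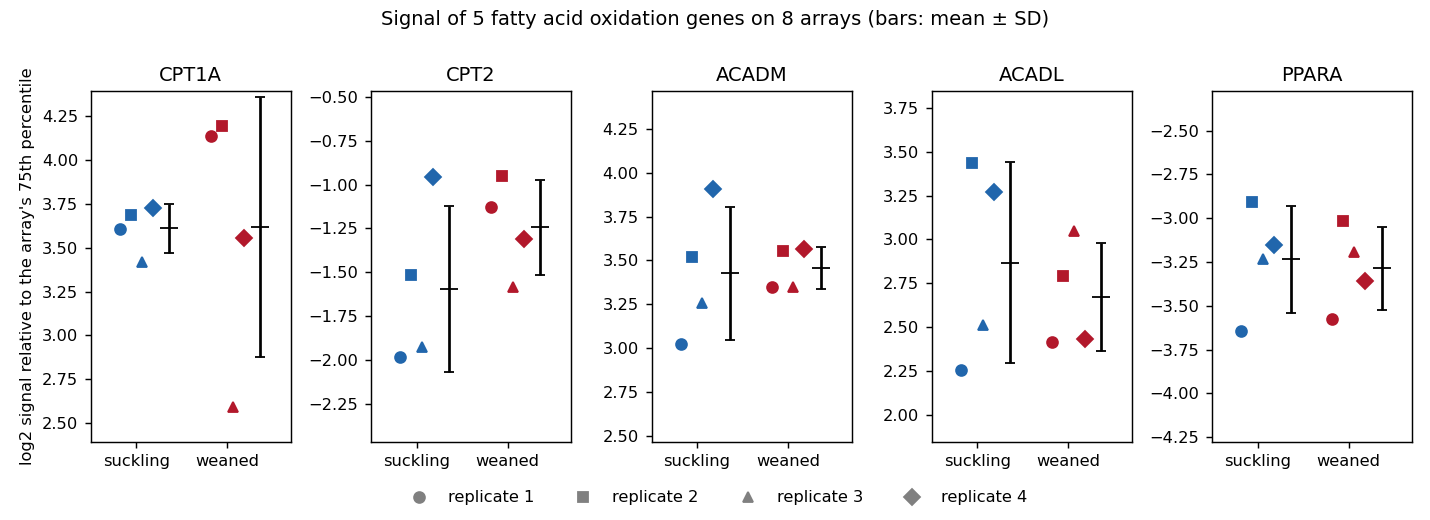
Log2 signal of the 5 genes relative to the 75th percentile of each array (y axis, each panel spans the same 2 log2 units), with 4 suckling (blue) and 4 weaned (red) arrays, the replicate number as the symbol, and the mean ± SD as bars. The groups overlap for all 5 genes, and the spread sits in different groups: weaned CPT1A runs from 2.59 to 4.19, and suckling ACADL from 2.26 to 3.44.

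CPT1A, the outer-membrane carnitine palmitoyltransferase that sets the rate of long-chain fatty acid entry, had nearly the same mean in both groups. Levels below are log2 signals relative to the array's 75th percentile. Its level was 3.61, 3.69, 3.42 and 3.73 in suckling replicates 1 to 4, and 4.14, 4.19, 2.59 and 3.55 in weaned replicates 1 to 4. The suckling piglets lay close together, while the weaned piglets reached both the highest and the lowest values of the 8. The suckling mean was 3.61 ± 0.14 and the weaned mean 3.62 ± 0.74 (SD, n = 4 each). They differed by 0.01 on the log2 scale, with an SE of 0.33 and a limma adjusted p of 0.995. The 95% interval of the difference, not adjusted for the number of probes, ran from 0.599-fold to 1.69-fold. Without suckling replicate 1 the difference was again 0.01.

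The low CPT1A value of weaned replicate 3 was seen with each of the gene's 6 probes: all 6 had their lowest value of the 8 arrays there. Over all tested probes this array was the lowest of the 8 for 9.87%. Probes of one gene read the same RNA, so their agreement speaks to the measurement and not to further animals. Between the groups the 6 probes did not point one way, with 3 higher and 3 lower means in weaned piglets and log2 differences from -0.55 to 0.17, none past the threshold (limma adjusted p at least 0.537). In A_72_P443903 the suckling levels were 1.63, 1.21, 1.41 and 1.73, and the weaned levels 1.60, 1.94, -0.16 and 0.50. In that probe weaned replicate 4 as well as 3 lay below all suckling piglets, whereas in the brightest probe weaned replicate 4, at 3.55, lay within the suckling range.

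CPT2, the inner-membrane partner that turns the carnitine ester back into acyl-CoA, had the largest difference of the 5. Its single probe read -1.99, -1.52, -1.93 and -0.95 in suckling replicates 1 to 4 and -1.13, -0.95, -1.58 and -1.31 in weaned replicates 1 to 4. Suckling replicates 1 and 3 were lower than every weaned piglet, but suckling replicate 4 was at the level of the highest weaned piglet. The means were -1.60 ± 0.48 and -1.24 ± 0.27 (SD, n = 4 per group). The log2 difference was 0.35 (SE 0.25, limma adjusted p = 0.604), with an interval from 0.859-fold to 1.90-fold. It was 0.22 without suckling replicate 1 (limma adjusted p = 0.645), a smaller fold of 1.17 in place of 1.28.

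ACADM, the medium-chain acyl-CoA dehydrogenase, had close means and a narrower spread than ACADL. Its level was 3.02, 3.52, 3.26 and 3.91 in suckling replicates 1 to 4 and 3.35, 3.55, 3.35 and 3.57 in weaned replicates 1 to 4. The weaned piglets spanned 0.22 log2 units and lay inside the suckling range of 0.89. The means were 3.43 ± 0.38 and 3.45 ± 0.12 (SD, n = 4 each). They differed by 0.03 on the log2 scale, with an SE of 0.20, a limma adjusted p of 0.967 and an interval from 0.743-fold to 1.40-fold. Its sign is not settled: it was -0.11 without suckling replicate 1 and also turned under quantile normalisation, median scaling and the deposited table.

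The gene had 7 probes, and 2 of them gave a higher and 5 a lower mean in weaned piglets, with log2 differences from -0.19 to 0.20 and none past the threshold. The animals nevertheless ranked alike across probes. All 7 had their lowest suckling value in suckling replicate 1, and 6 of 7 had their highest value of the 8 arrays in suckling replicate 4. All 7 also had their lowest weaned value in weaned replicate 1. Without suckling replicate 1, the weaned values of A_72_P581232 all lay below the suckling ones. The log2 difference was then -0.41 (limma adjusted p = 0.174). A_72_P581232 was the 1 probe of the 21 whose groups did not overlap in that run, against 20.5% of all tested probes.

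ACADL, the long-chain acyl-CoA dehydrogenase, varied more between piglets than between groups. Its level was 2.26, 3.44, 2.51 and 3.27 in suckling replicates 1 to 4 and 2.42, 2.79, 3.05 and 2.43 in weaned replicates 1 to 4. Suckling replicates 2 and 4 were higher than all weaned piglets, and suckling replicate 1 was lower than all of them. The suckling mean was 2.87 ± 0.57 and the weaned mean 2.67 ± 0.31 (SD, n = 4 each). The log2 difference was -0.20 (SE 0.29, limma adjusted p = 0.820), with an interval from 0.554-fold to 1.38-fold. Without suckling replicate 1 it was -0.40 (SE 0.26, limma adjusted p = 0.407).

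All 6 ACADL probes had their lowest value of the 8 arrays in suckling replicate 1, where 19.0% of all tested probes had theirs. All 6 ranked suckling replicate 4 among the highest 2 arrays and 5 of them suckling replicate 2 as well. In the group comparison the probes gave log2 differences between -0.20 and 0.04, 5 of them below 0 and none past the threshold (limma adjusted p at least 0.820).

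**Figure D2:**
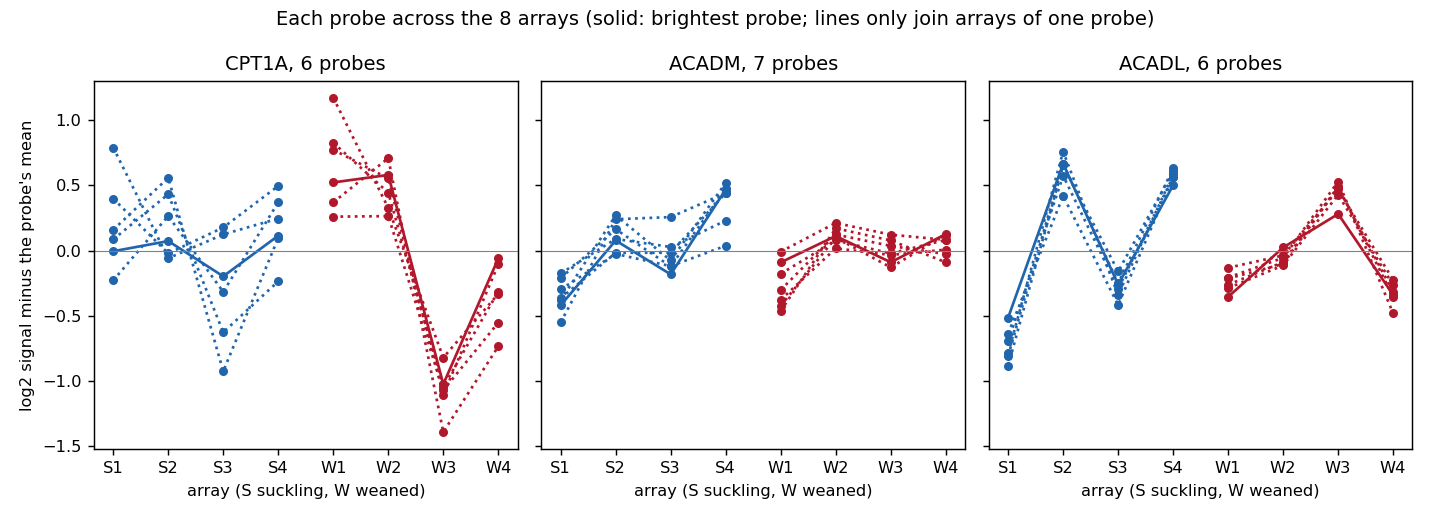
Log2 signal of each probe of CPT1A, ACADM and ACADL minus that probe's mean (y axis) on the 4 suckling (S1 to S4, blue) and 4 weaned (W1 to W4, red) arrays, with the brightest probe as a solid line. The probes of a gene trace the same piglets up and down: all 6 CPT1A probes are lowest in W3, and all 6 ACADL probes are lowest in S1.

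PPARA, the receptor itself, had 1 probe with a weak signal. It read 19.6 to 52.2 scanner units on the 8 arrays but was well above background on all of them. Its level was -3.64, -2.91, -3.23 and -3.15 in suckling replicates 1 to 4 and -3.57, -3.01, -3.19 and -3.36 in weaned replicates 1 to 4. Replicate 1 was lowest and replicate 2 highest in both groups, and the groups covered nearly the same range. The means were -3.24 ± 0.31 and -3.29 ± 0.24 (SD, n = 4 each). They differed by -0.05 on the log2 scale, with an SE of 0.20, a limma adjusted p of 0.939 and an interval from 0.708-fold to 1.32-fold. Without suckling replicate 1 the difference was -0.19 (limma adjusted p = 0.568).

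**Figure D3:**
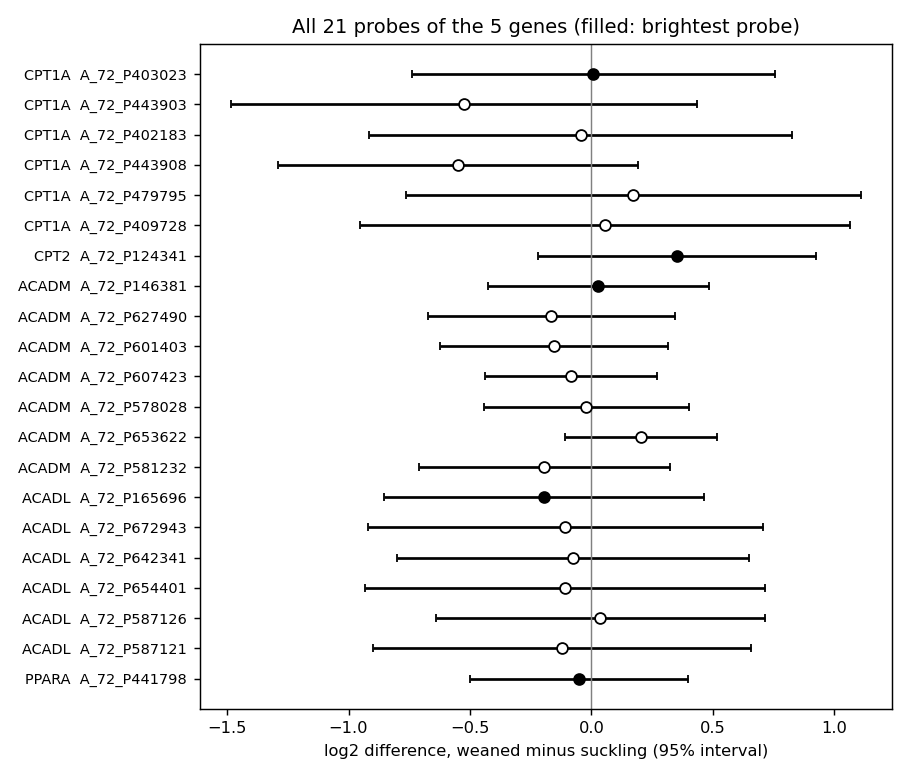
Log2 difference, weaned minus suckling (x axis), of all 21 probes of the 5 genes with its 95% interval from limma, not adjusted for the number of probes; filled points mark the brightest probe of a gene. All 21 intervals include 0, and the widest belong to CPT1A, from -1.48 to 1.11 over its 6 probes.

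The genes whose levels ran most like each member over the 8 arrays were sought among 2768 other named genes, by Pearson's r. All arrays were scaled in the same way and those of a group shared a slide, so these coefficients are descriptions. They are the highest of the 2768 and were not tested. For CPT1A they were RCSD1 (r = 0.958) and NABP1 (r = 0.937), and for CPT2 they were ACTR2 and DESI2 (r = 0.933 each). For ACADM they were AGPAT2 (r = 0.973) and MGST3 (r = 0.971), with 23 genes above 0.9. For ACADL they were CYP27A1 (r = 0.961) and CLN6 (r = 0.953), with 36 genes above 0.9, the most of the 5. For PPARA they were TCEANC (r = 0.946) and PLPP2 (r = 0.932). CPT1A had 2 genes above 0.9, and CPT2 and PPARA had 3 each. CYP27A1, the sterol 27-hydroxylase, ranged from -2.97 in suckling replicate 1 to 1.26 in suckling replicate 2, a much wider span than that of ACADL.

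The wider pathway was read through 7 lists with 149 entries, of which 81 had a probe and 79 were tested. The 2 that were not tested were PLIN5, a lipid droplet protein that was not well above background on any array, and FADS2, a fatty acid desaturase that was so on 1 array. None of the 79 genes passed the test with 8 arrays, where 0.177% of all tested probes did. At an unadjusted p under 0.05 there were 13 of 79, or 16.5%, against 12.3% of all tested probes. The groups did not overlap for 7 of 79, or 8.86%, against 7.76%, and without suckling replicate 1 for 17 of 79, or 21.5%, against 20.5%. Both overlap shares were near those of the array as a whole.

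Entry of fatty acids into oxidation had 7 tested genes of 18 listed, 5 with a higher and 2 with a lower mean in the weaned group, and their median log2 difference was 0.25. ACSL4, an acyl-CoA synthetase that favours arachidonate, read 1.33, 1.04, 1.12 and 1.36 in suckling replicates 1 to 4 and 1.81, 1.52, 1.40 and 1.67 in weaned replicates 1 to 4. Every weaned value lay above every suckling value, and all 6 of its probes had the same sign, but at 0.39 (SE 0.15) its limma adjusted p was 0.364. ACSL1, another synthetase, differed by 0.37 (limma adjusted p = 0.399), with all 3 of its probes of the same sign. ACACB, which makes the malonyl-CoA that inhibits CPT1, differed by 0.54 (limma adjusted p = 0.398). The ACACB signal was weak, at means of -3.21 in suckling and -2.67 in weaned piglets. Of its 3 probes 1 was tested, and its difference was -0.05 under normexp background correction. CPT1B, the muscle form of CPT1, differed by 0.25 (limma adjusted p = 0.670), with its 3 probes running from -0.11 to 0.25.

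The other mitochondrial beta-oxidation genes split evenly. Of 24 listed, 13 were tested, 7 with a higher and 6 with a lower mean in weaned piglets, and the median log2 difference was 0.11 (-0.04 without suckling replicate 1). ETFA, a subunit of the flavoprotein that takes electrons from the acyl-CoA dehydrogenases, had a suckling mean of 3.17 ± 0.24 and a weaned mean of 3.63 ± 0.26 (SD, n = 4 each). All 8 of its probes had higher means in weaned piglets, and the log2 difference was 0.45 (limma adjusted p = 0.374). ECI2, an enoyl-CoA isomerase, and ACAD8, the isobutyryl-CoA dehydrogenase of valine breakdown, differed by 0.67 and 0.63 (limma adjusted p = 0.390 and 0.451). DECR1, the reductase needed for polyunsaturated chains, differed by -0.45 (limma adjusted p = 0.583). HADHA, which forms the trifunctional protein with HADHB, had 1.20, 2.81, 2.29 and 2.77 in suckling replicates 1 to 4 and 2.64, 2.31, 2.72 and 2.51 in weaned replicates 1 to 4. HADHA was chosen for mention after its values were seen, as the partner of a member without a probe, and suckling replicate 1 was again the lowest array. The weaned mean of HADHA was the higher one with all arrays and the lower one without suckling replicate 1.

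Peroxisomal oxidation was the one list of the 7 in which every tested gene, 8 of 8 (19 listed), had a lower mean in the weaned group. The median log2 difference was -0.55, against 0.04 over all probes. None passed the test. The split was also 8 of 8 under quantile normalisation, median scaling and the deposited table, 7 of 8 under normexp background correction and without suckling replicate 3 or 4, and 6 of 8 without suckling replicate 2 or without weaned replicate 1. CAT, the catalase that removes peroxisomal hydrogen peroxide, read 3.63, 5.82, 4.23 and 5.65 in suckling replicates 1 to 4 and 3.28, 4.12, 4.29 and 4.08 in weaned replicates 1 to 4. Suckling replicates 2 and 4 lay above all weaned piglets, while suckling replicates 1 and 3 lay among them. The log2 difference was -0.89 (SE 0.49, limma adjusted p = 0.503), with all 9 probes of CAT below 0.

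HSD17B4, the bifunctional enzyme of peroxisomal chain shortening, differed by -0.67 and ABCD3, a peroxisomal acyl-CoA transporter, by -0.60 (limma adjusted p = 0.503 and 0.552). CROT, which makes medium-chain carnitine esters in peroxisomes, differed by -0.35 (limma adjusted p = 0.553). The list's genes ordered the suckling piglets much as ACADL did, with suckling replicate 1 lowest of the suckling arrays for 8 of 8, a place it took for 30.4% of all tested probes. The enterocyte markers shared this order: suckling replicate 1 was the lowest suckling array for 8 of 8, and their means in weaned piglets were higher for 3 and lower for 5 with 8 arrays, but lower for 8 of 8 without it (median log2 difference -0.34). The part of epithelial content in the peroxisomal values was not tested. The peroxisomal median was -0.84 without suckling replicate 1, where the lowest limma adjusted p was 0.0886. It was smaller in size without suckling replicate 4 (-0.31), suckling replicate 2 (-0.38) or weaned replicate 1 (-0.42), and under normexp (-0.28). HSD17B4 and ABCD3, 2 of the 8, did not overlap between the groups without suckling replicate 1, at log2 differences of -0.97 and -0.94. In that run 20.5% of all tested probes did not overlap, and 8.34% of all tested probes did so with weaned piglets lower.

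**Figure D4:**
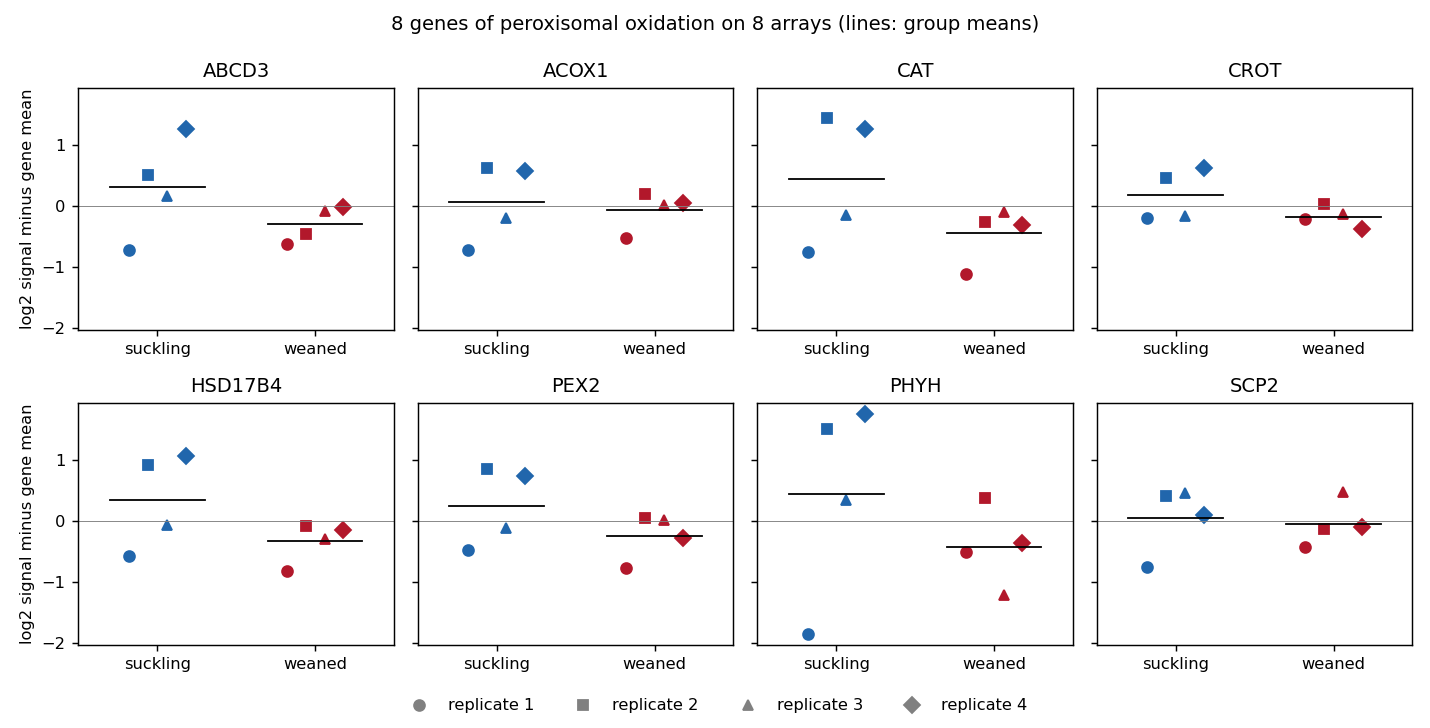
Log2 signal minus the gene's mean (y axis) of the 8 tested genes of peroxisomal oxidation in 4 suckling (blue) and 4 weaned (red) piglets, with replicates by symbol and group means as lines. The suckling mean is above the weaned mean in all 8 panels, and suckling replicate 1 (circle) is the lowest suckling array in each.

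Of the genes listed for ketone body synthesis and use, those described here are a transferase and a transporter. OXCT1, which lets tissues use ketone bodies, differed by 0.34 on the log2 scale (limma adjusted p = 0.580), with both of its probes higher in weaned piglets. SLC16A1, a transporter of ketone bodies and lactate, differed by -0.08 (limma adjusted p = 0.926).

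Regulators around PPARA gave no call either. Of 21 listed, 13 were tested, 8 with a higher and 5 with a lower mean in weaned piglets, and the median was 0.05. PPARG, the receptor that promotes fat storage, read 1.29, 0.09, 1.54 and 1.58 in suckling replicates 1 to 4 and 2.46, 2.44, 2.14 and 2.64 in weaned replicates 1 to 4. The groups did not overlap and the log2 difference was 1.30 (SE 0.32, limma adjusted p = 0.194), but its 3 probes ran from -0.94 to 1.30. PPARGC1A, the coactivator of mitochondrial genes, read 1.12, 3.34, 2.26 and 3.05 in suckling replicates 1 to 4 and 0.59, 1.14, 1.89 and 1.81 in weaned replicates 1 to 4. Its log2 difference was -1.08 (SE 0.49, limma adjusted p = 0.417), and without suckling replicate 1 it was -1.52 (limma adjusted p = 0.0746), with no overlap. NCOA1, a coactivator of nuclear receptors, differed by -0.74 (limma adjusted p = 0.293). RXRG, a partner receptor of the PPARs, differed by 0.49 (limma adjusted p = 0.542), with its 3 probes running from -0.44 to 0.49. The RXRG signal was weak, at means of -3.34 in suckling and -2.86 in weaned piglets, and its difference was 0.03 under normexp background correction.

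Genes that PPARA is known to control outside oxidation were split, with 12 higher and 7 lower means among 19 tested of 27 listed and a median of 0.03. Their log2 differences ran from -1.90 to 1.74, and from -2.93 to 2.22 without suckling replicate 1. The lowest value was not that of PDK4 in either case. PDK4, the kinase that spares glucose by blocking pyruvate dehydrogenase, read 3.52, 3.67, 4.62 and 4.27 in suckling replicates 1 to 4 and 2.80, 2.27, 1.74 and 2.19 in weaned replicates 1 to 4. Every weaned piglet lay below every suckling piglet, and all 9 probes pointed the same way. The log2 difference was -1.77 (SE 0.30, 95% interval -2.45 to -1.09), 3.42-fold, with a limma adjusted p of 0.0703. It passed with array weights (limma adjusted p = 0.0269) and without suckling replicate 1, where PDK4 fell by 1.94 on the log2 scale (limma adjusted p = 0.0343). In the other alternatives the limma adjusted p was 0.0560 to 1.00. PDK4 was the 1 gene of the 79 that passed in either run. Of all tested probes, 1.82% passed without suckling replicate 1, and 362 of 30556 passed with array weights.

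TXNIP, a regulator of glucose uptake, differed by -0.72 (limma adjusted p = 0.230), also without overlap. LPL, the lipase that frees fatty acids from lipoproteins, had a suckling mean of -1.15 ± 1.19 and a weaned mean of 0.59 ± 0.72 (SD, n = 4 each). All 5 of its probes had higher means in weaned piglets, and the log2 difference was 1.74 (limma adjusted p = 0.296). CYP4A24, a fatty acid omega-hydroxylase, differed by 0.54 without overlap (limma adjusted p = 0.241), but it has a close copy in CYP4A21, whose difference was 0.06, and a probe may read both. FABP1, the abundant fatty acid binding protein and a classical PPARA target, had 8.77 ± 0.58 and 8.78 ± 0.21 and a difference of 0.01. It was named after its values were seen.

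**Figure D5:**
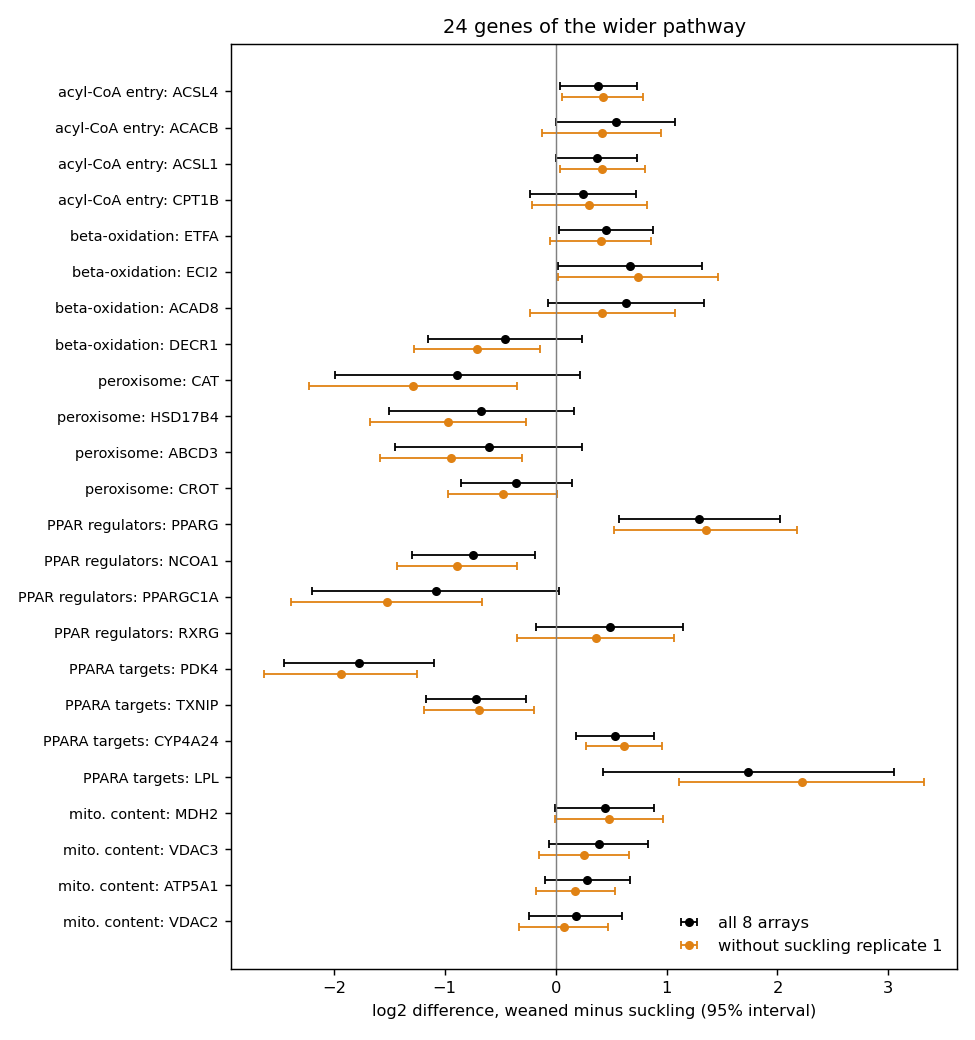
Log2 difference, weaned minus suckling (x axis), with the 95% interval from limma, not adjusted for the number of probes, for 24 genes with the smallest p in 6 of the lists, 4 per list, with all 8 arrays (black) and without suckling replicate 1 (orange). PDK4 sits farthest to the left, at -1.77 and -1.94, and LPL farthest to the right, at 1.74 and 2.22.

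Mitochondrial content genes, such as citrate cycle enzymes and respiratory chain subunits, served as a yardstick for the members. All 16 tested of 30 listed had a higher mean in weaned piglets, by a median of 0.15 on the log2 scale, and none passed. The count was 14 of 16 under quantile normalisation and the deposited table, 15 of 16 under median scaling, and 11 of 16 without suckling replicate 1. MDH2, the mitochondrial malate dehydrogenase, differed by 0.44 and VDAC3, an outer-membrane channel, by 0.39 (limma adjusted p = 0.408 and 0.466). ATP5A1, a subunit of the ATP synthase, and VDAC2, a related channel, differed by 0.28 and 0.18 (limma adjusted p = 0.538 and 0.730).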

How the data were processed

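Jejunal RNA of 4 suckling and 4 weaned piglets was measured on 1-colour arrays. Per the labels' protocols, RNA had a RIN of 7.0 or more and was labelled with Cy3. Scans were read with Agilent Feature Extraction 10.7, per the submitters' processing notes. The deposited intensity of each spot had been background-subtracted by that software, per the file headers. The deposited log2 table of the series ranks probes as these intensities do. Its column medians were all 5.50, and its centring is not known. Its differences lay close to those under quantile normalisation, at -0.057 and -0.054 for CPT1A and -0.252 and -0.248 for ACADL. The deposited table and quantile normalisation are therefore not separate checks.

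Control spots were left out, outlier spots set to missing and spots of a probe averaged. Each array's log2 75th percentile was subtracted. Probes well above background on at least 4 arrays with at least 3 values per group were tested with limma 3.58.1 in R 4.3.3, group as the sole term, after a check on simulated data. Intervals are at 95%. The number of arrays limits the precision, and 67.5% to 71.0% of spots were well above background per array.

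Symbols came from RefSeq accessions without versions through a table of assembly Sscrofa11.1, used for names alone, which named 6924 probes, 85.6% of those with a RefSeq accession. List genes were matched by symbol or a single synonym, with the brightest probe of each. Named were all members, up to 4 genes per list with the smallest p, and the 2 genes most like each member. 1 gene that this rule picks is not reported here. Members and lists were chosen with earlier results of these data known. Alternatives were quantile and median scaling, normexp with an offset of 50 (on median spot intensity), other dim-probe filters, flagged spots kept, a trended robust prior, array weights, the replicate block, the deposited table, the mean over a gene's tested probes, and each array left out. The labels tie no replicate number to a litter.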

Additional observations from a re-analysis of the deposited data

Results flagged for a closer look

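Among the 5 members and the 27 named genes of the wider pathway, 64 groups of 4 values were examined for a sample far from the other 3, and 1 had one. NCOA1, a nuclear receptor coactivator, was lowest in suckling replicate 1, where the gap to the next value made up 0.967 of the group's range. Chance gives about 1 such group in 20. None of the 5 members had such a sample.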

How the results depend on the processing

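None of the 5 members passed in any of the 19 alternatives, and their lowest limma adjusted p over these was 0.323 (CPT2). Of 95 member values under the alternatives, 78 kept their sign and 17 turned, and the members that turned were CPT1A (7), ACADM (8) and PPARA (2). CPT1A and ACADM turned to -0.054 and -0.029 under quantile normalisation, to -0.035 and -0.014 under median scaling, to -0.057 and -0.031 with the deposited table, and to -0.147 and -0.055 with the mean over probes. With each array left out in turn, CPT1A ran from -0.18 to 0.35, ACADM from -0.11 to 0.19 and PPARA from -0.19 to 0.058; CPT2 and ACADL kept their sign, at 0.22 to 0.57 and -0.40 to -0.01. CPT1A was highest without weaned replicate 3. The count of 54 probes past the threshold was 0 under normexp (251 probes at an unadjusted p under 0.05 by limma), 0 with the replicate block (4196 at an unadjusted p under 0.05 by limma), 362 with array weights, and 9 to 553 with each array left out, the highest without suckling replicate 1. Normexp also moved the median log2 difference of all tested probes from 0.04 to -0.10; the cause was not tested. The count of pathway genes past the threshold was 1 (PDK4) with array weights and 0 to 1 with each array left out. Pathway genes whose groups do not overlap numbered 17 without suckling replicate 1, a choice made after seeing the data. The numbers were not taken as pairs, because the labels tie none to a litter. Deviations of same-numbered arrays from their group means correlated across probes at 0.368, 0.008, 0.186 and -0.018 for numbers 1 to 4. These were not set against different-numbered arrays. No member or pathway gene passed with or without the block. As 0 of all tested probes passed with it, this cannot tell whether pairing matters. The slide as a block could not be fitted. For a weak signal such as that of PPARA the low signal over background limits the differences that can be seen.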
